A study of Mus musculus with 9 samples.

Results

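The genes described here are 7 sarcomere genes known to respond to mechanical stress: Ankrd1, Ankrd2, Ankrd23, Csrp3, Xirp1, Xirp2 and Flnc. They were taken by gene symbol from the deposited count table, where each had 1 row, and all 7 of 7 passed the count filter, among 13901 genes tested of 35275 listed. Poly-A RNA had been sequenced from the gastrocnemius, a mostly fast-twitch calf muscle, of 12-week-old female wild-type NSG (NOD scid gamma) mice. The mice received extracellular vesicles (EVs), membrane-bound particles shed by cells, through the tail vein, about 10 µg per injection, 2 injections a week for 5 weeks and 10 in all, and muscle was taken 2 days after the last one. In the MDA-MB-231 EV group (5 libraries) the vesicles came from a human breast cancer line, and in the MCF-10A EV group (4 libraries) from a non-tumorigenic human breast epithelial line. Both groups were thus given human EVs, no group without EVs is used here, and NSG mice lack mature lymphocytes. The labels do not say that the libraries came from separate animals, so p-values measure the spread between these libraries. Total gene counts ranged from 13943465 to 25195826 per library.

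Muscle fibres sense load partly at the titin filament and at the Z-disc, where neighbouring sarcomeres are joined. Ankrd1 (CARP), Ankrd2 (Arpp) and Ankrd23 (DARP) form the muscle ankyrin repeat protein family, which binds the elastic part of titin and can also enter the nucleus. Csrp3 encodes the muscle LIM protein, a Z-disc and nuclear adaptor, and in mice Ankrd2 and Csrp3 are known to be more abundant in slow than in fast fibres. Xirp1 and Xirp2 encode the Xin proteins, which bind actin filaments at attachment and damage sites, and Flnc encodes filamin C, the muscle actin cross-linker to which Xin binds.

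In these muscles none of the genes passed the test between the EV groups, and the libraries of the groups overlapped for each of the 7. Ankrd2 and Csrp3 had the largest fold changes of the 7, with log2 fold changes of 1.12 and 0.99 in MDA-MB-231 EV relative to MCF-10A EV, and they were also the most variable of the 7 between libraries of a group. Ankrd2 and Csrp3 varied together from library to library, and so did Xirp1 and Flnc. Ankrd23, the ankyrin family member with the highest FPKM, spanned 1.82-fold (CPM) from the lowest to the highest library, and Ankrd2 17.3-fold.

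Promoter sequence is shown for Ankrd2 and Csrp3, which varied together, and for Ankrd1 and Flnc, whose windows hold a motif that theirs lack. Most promoter windows lack this motif, so its absence does not mark out Ankrd2 and Csrp3. Ankrd23 holds it too and is not printed. Csrp3 and Flnc had 2 windows each, of which 1 is printed. The sequences are RefSeq promoter windows of 300 bases (250 before and 50 after an annotated start) on GRCm38.p6, the build named mm10 in the deposited data, read 5′ to 3′ on the gene's strand. Capitals mark the MCAT motif, CATTCC or its reverse complement GGAATG, the letters that TEAD factors are known to bind.
Ankrd2, chr19:42035777-42036076, plus strand: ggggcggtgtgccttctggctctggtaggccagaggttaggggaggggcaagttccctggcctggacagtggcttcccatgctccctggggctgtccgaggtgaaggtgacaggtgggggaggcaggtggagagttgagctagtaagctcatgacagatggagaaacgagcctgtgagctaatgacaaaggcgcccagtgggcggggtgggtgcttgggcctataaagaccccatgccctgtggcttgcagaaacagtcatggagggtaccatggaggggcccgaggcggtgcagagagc
Csrp3, chr7:48848002-48848301, minus strand: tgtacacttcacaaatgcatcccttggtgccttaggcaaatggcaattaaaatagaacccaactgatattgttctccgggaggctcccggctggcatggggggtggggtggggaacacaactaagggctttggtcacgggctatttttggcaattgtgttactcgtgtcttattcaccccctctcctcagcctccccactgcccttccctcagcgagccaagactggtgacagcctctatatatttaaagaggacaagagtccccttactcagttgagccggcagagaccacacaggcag
Ankrd1, chr19:36119795-36120094, minus strand: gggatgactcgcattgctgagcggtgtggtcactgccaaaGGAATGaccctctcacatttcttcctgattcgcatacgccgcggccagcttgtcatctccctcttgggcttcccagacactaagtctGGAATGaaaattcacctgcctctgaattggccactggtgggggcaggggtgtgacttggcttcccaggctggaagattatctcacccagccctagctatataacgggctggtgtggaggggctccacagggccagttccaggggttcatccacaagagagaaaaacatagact
Flnc, chr6:29432903-29433202, plus strand: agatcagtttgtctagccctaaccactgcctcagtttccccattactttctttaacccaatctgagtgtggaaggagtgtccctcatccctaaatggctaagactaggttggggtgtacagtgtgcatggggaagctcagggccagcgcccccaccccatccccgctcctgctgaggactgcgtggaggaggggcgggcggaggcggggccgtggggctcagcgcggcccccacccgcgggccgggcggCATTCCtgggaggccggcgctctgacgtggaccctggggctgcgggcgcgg
A window was listed for 6 of the 7 genes, 9 windows in all. MCAT was present in the windows of Ankrd1 (first bases at positions 41 and 128 of the window), Ankrd23 (position 131 of 1 window and 287 of the other) and Flnc (position 250 of the window printed and 147 of the other), counted from 1 at the 5′ end, and was not found in those of Ankrd2, Csrp3 and Xirp2. The Flnc windows overlap, and both positions mark the same site. It was present in 14.7% of 32851 promoter windows of the same length. A MEF2 box, searched on both strands, was found in the Xirp2 window at position 177, and in 3.19% of all windows. A strict CArG box, the motif of SRF (1.63% of all windows), and the E-box CAGCTG (16.3%) were found in none of the 9 windows. These are matches of letters and not measured binding sites.

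Levels between genes were compared as FPKM, which divides counts by gene length and library total. Ankrd23 had the highest level of the 7 genes in 9 of 9 libraries, at 1267 ± 196 FPKM in MDA-MB-231 EV and 1371 ± 279.9 FPKM in MCF-10A EV (SD, n = 5 and 4, as for all group values here). Ankrd1 had the lowest in 9 of 9, at 6.29 ± 2.64 and 5.63 ± 1.35 FPKM. In MDA-MB-231 EV the others followed Ankrd23 in the order Csrp3 (182 ± 129), Xirp2 (142 ± 11.3), Ankrd2 (122 ± 88.9), Flnc (100.4 ± 34.3) and Xirp1 (33.3 ± 23.3 FPKM). The first place of Csrp3 among these rested on replicate 1, at 399.6 FPKM, and Xirp2 was above Csrp3 in 3 of the 5 libraries. In MCF-10A EV the order was Xirp2 (168 ± 61.5), Flnc (99.4 ± 31.7), Csrp3 (84.9 ± 67.4), Ankrd2 (52.3 ± 36.5) and Xirp1 (37.3 ± 14.1 FPKM). In MDA-MB-231 EV, Csrp3, Xirp2, Ankrd2 and Flnc each lay within the larger SD of the next of these 4 in the order. In MCF-10A EV that held for Csrp3 with each of its neighbours, Flnc and Ankrd2, and for Ankrd2 with Xirp1, while the gap from Xirp2 to Flnc was larger than either SD.

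All other levels are CPM, gene counts scaled to a common library size with TMM factors, given as MDA-MB-231 EV replicates 1 to 5 and then MCF-10A EV replicates 1 to 4. Fold changes are on the log2 scale, positive where MDA-MB-231 EV is higher, from edgeR's quasi-likelihood test over all 13901 genes. At a Benjamini-Hochberg adjusted p under 0.05 this test called 0 of the 7 genes, and 0% of all genes in either direction. At an unadjusted p under 0.05 it called 0 of the 7, while among all genes it called 5.95% with a positive and 6.86% with a negative fold change. DESeq2 called 0 of the 7, against 0.765% of its 7447 genes with an adjusted p higher and 2.30% lower. A full separation of the groups was seen for 0 of the 7, and for 2.22% (higher) and 3.17% (lower) of all genes. The fold change was above 0 for 3 of the 7 and for 53.1% of all genes, and its median was -0.12 for the 7 and 0.020 for all genes.

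**Figure D1:**
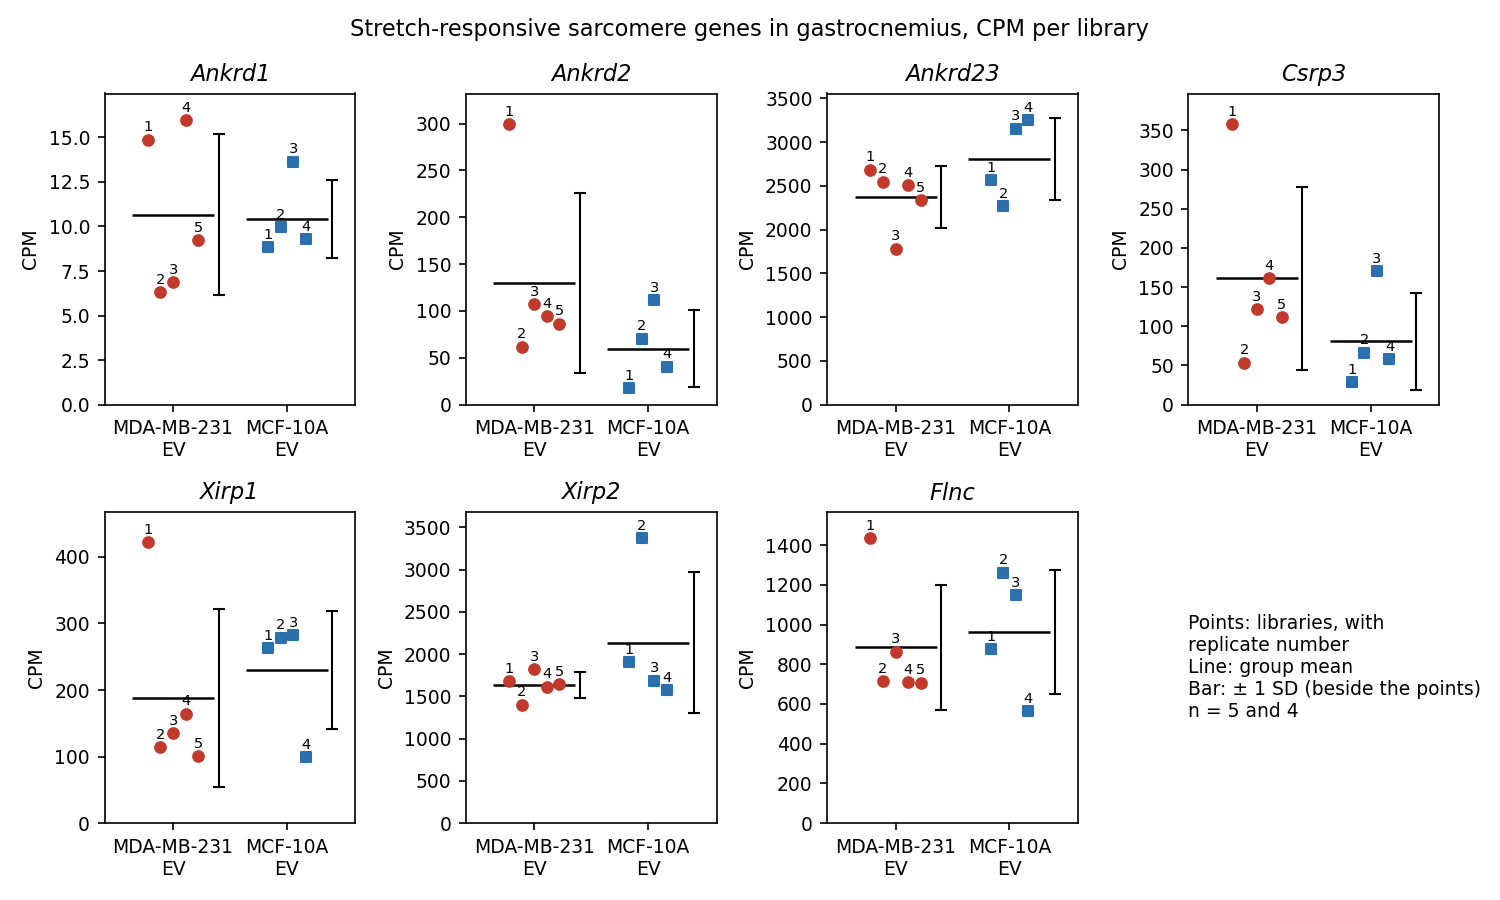
CPM (vertical axes, from 0) of the 7 genes in each library, MDA-MB-231 EV (circles) left of MCF-10A EV (squares), numbered by replicate, with the group mean as a line and ± 1 SD as a bar beside the points. The groups overlap in each panel, and MDA-MB-231 EV replicate 1 is the highest library for Ankrd2 (299 CPM), Csrp3 (358 CPM), Xirp1 (423 CPM) and Flnc (1434 CPM).

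Among the titin-binding ankyrin proteins, Ankrd2 (ENSMUSG00000025172; mm10, chromosome 19, 42036038 to 42045110, plus strand), a slow-fibre member that is known to respond to stretch, had the largest spread of values. Its levels were 299, 62.0, 107, 94.7 and 86.3 CPM in MDA-MB-231 EV, against 17.3, 70.4, 111 and 40.6 CPM in MCF-10A EV, on 315 to 7419 counts. The highest library was MDA-MB-231 EV replicate 1, at 3.31 times the median of the other libraries of its group, and the lowest was MCF-10A EV replicate 1. The other libraries of both groups lay between 40.6 and 111 CPM. The means were 129.9 ± 96.1 and 59.9 ± 40.6 CPM, a log2 fold change of 1.12 ± 0.62 (SE; 95% interval -0.30 to 2.53; edgeR adjusted p = 0.477). Leaving out MDA-MB-231 EV replicate 1 gave a fold change of 0.55. Leaving out replicate 1 of both groups, a setting chosen after seeing the data, gave 0.24.

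Ankrd1 (ENSMUSG00000024803; chromosome 19, 36111965 to 36119844, minus strand), the cardiac family member, which skeletal muscle is known to induce on denervation or injury, was the least abundant of the 7, on 128 to 369 counts. Values were 14.9, 6.33, 6.89, 16.0 and 9.23 CPM in MDA-MB-231 EV, against 8.86, 9.95, 13.6 and 9.29 CPM in MCF-10A EV. Of the MDA-MB-231 EV libraries, replicates 1 and 4 lay above and replicates 2 and 3 below the whole MCF-10A EV range. The means of 10.7 ± 4.51 and 10.4 ± 2.18 CPM gave a log2 fold change of 0.029 ± 0.28 (SE; 95% interval -0.59 to 0.64; edgeR adjusted p = 0.975), whose sign turned in 10 of 23 alternative settings.

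Ankrd23 (ENSMUSG00000067653; chromosome 1, 36530534 to 36535729, minus strand) encodes the diabetes-related ankyrin repeat protein. Its levels were 2687, 2549, 1782, 2512 and 2337 CPM in MDA-MB-231 EV, against 2566, 2268, 3153.5 and 3251 CPM in MCF-10A EV. MCF-10A EV replicates 3 and 4 were above every other library, and the remaining libraries were mixed. The log2 fold change was -0.24 ± 0.15 (SE; 95% interval -0.57 to 0.084; edgeR adjusted p = 0.505) and ranged from -0.43 to -0.11 over 23 alternative settings, with -0.15 on omission of MDA-MB-231 EV replicate 3. Within groups its log2 CPM had an SD of 0.24, close to the median of 0.25 over all genes tested.

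Csrp3 (ENSMUSG00000030470; chromosome 7, 48830398 to 48848051, minus strand) encodes the muscle LIM protein. Its levels were 358, 53.5, 122, 161 and 111 CPM in MDA-MB-231 EV, against 28.7, 66.6, 171 and 58.0 CPM in MCF-10A EV. As for Ankrd2, MDA-MB-231 EV replicate 1 was highest and MCF-10A EV replicate 1 lowest, and MCF-10A EV replicate 3 was above 4 of the 5 MDA-MB-231 EV libraries. The means were 161 ± 116 and 81.0 ± 61.9 CPM, a log2 fold change of 0.99 ± 0.64 (SE; 95% interval -0.46 to 2.45; edgeR adjusted p = 0.534). Leaving out MDA-MB-231 EV replicate 1 gave 0.47, leaving out MCF-10A EV replicate 3 gave 1.66, and leaving out replicate 1 of both groups gave 0.18. Without MCF-10A EV replicates 1 and 2 together it was 0.49.

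Of the Xin genes, Xirp1 (ENSMUSG00000079243; chromosome 9, 120013755 to 120023598, minus strand) had 423, 114, 135, 165 and 101 CPM in MDA-MB-231 EV, against 263, 279, 282 and 98.7 CPM in MCF-10A EV. The high library of one group and the low library of the other, MDA-MB-231 EV replicate 1 and MCF-10A EV replicate 4, lay opposite to the rest of their groups. The log2 fold change was -0.30 ± 0.48 (SE; 95% interval -1.37 to 0.78; edgeR adjusted p = 0.828), and leaving out MDA-MB-231 EV replicate 1 gave -0.84 (edgeR adjusted p = 0.359). Without MCF-10A EV replicate 4 it was -0.55, and omission of any 1 of MDA-MB-231 EV replicates 2, 3 and 5 or MCF-10A EV replicates 2 and 3 gave -0.19 to -0.13. Omission of MCF-10A EV replicates 1 and 2 together gave -0.024. Xirp1 had 1881 to 10480 counts per library and lies within the listed span of Cx3cr1 on the same strand, which had 9 to 43.

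Xirp2 (ENSMUSG00000027022; chromosome 2, 67446002 to 67526614, plus strand) had 1682, 1400.5, 1823, 1615 and 1642 CPM in MDA-MB-231 EV, against 1909, 3371, 1686 and 1572 CPM in MCF-10A EV. The MDA-MB-231 EV libraries were close together, and MCF-10A EV replicate 2 stood well above all others. The log2 fold change was -0.39 ± 0.20 (SE; 95% interval -0.83 to 0.055; edgeR adjusted p = 0.442), the smallest p of the 7, and it was -0.078 without MCF-10A EV replicate 2. An antisense gene within its span was listed at 0 in every library.

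Flnc (ENSMUSG00000068699; chromosome 6, 29433153 to 29461888, plus strand), the filamin of striated muscle, had 1434, 714, 864, 710.0 and 707 CPM in MDA-MB-231 EV, against 877, 1261, 1148 and 564 CPM in MCF-10A EV. MDA-MB-231 EV replicate 1 was highest and MCF-10A EV replicate 4 lowest, as for Xirp1, and 4 of the 5 MDA-MB-231 EV libraries lay below 3 of the 4 MCF-10A EV libraries. The log2 fold change was -0.12 ± 0.27 (SE; 95% interval -0.71 to 0.47; edgeR adjusted p = 0.882), and leaving out each library in turn gave -0.36 (without MDA-MB-231 EV replicate 1) to 0.037 (without MCF-10A EV replicate 2). With unscaled library sizes it was 0.015, beside 0.15 for the median of all genes.

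**Figure D2:**
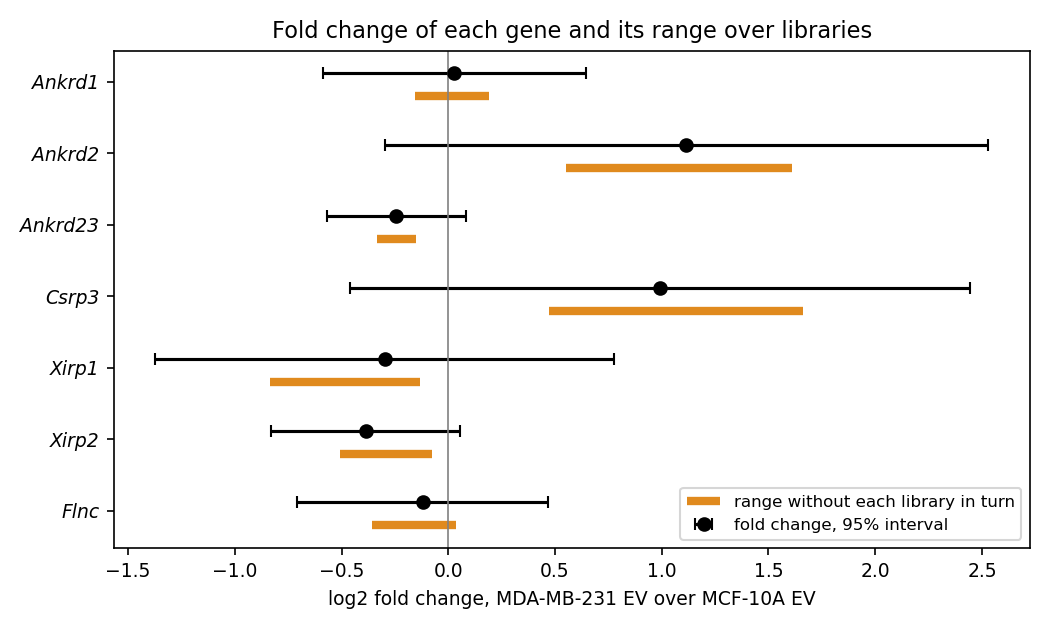
Log2 fold change (horizontal axis, positive where MDA-MB-231 EV is higher) for the 7 genes (points) with 95% intervals (black bars), and the range of the fold change when each of the 9 libraries was left out in turn (orange bars). Each interval spans 0, and the widest belong to Csrp3 (-0.46 to 2.45) and Ankrd2 (-0.30 to 2.53).

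The genes differed in how far libraries of the same group lay apart. The SD of log2 CPM within groups was 1.02 for Csrp3 and 0.99 for Ankrd2, at the 97.6th and 97.4th percentiles of all genes tested. It was 0.79 for Xirp1 (94.9th percentile), 0.50 for Ankrd1 (83.6th) and 0.48 for Flnc (82.1st), and lower for Xirp2, at 0.34 (67.9th), and for Ankrd23, at 0.24 (47.0th).

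Ankrd2 and Csrp3 were high and low in the same libraries, and so were Xirp1 and Flnc. Over the 9 libraries, log2 CPM of Ankrd2 and Csrp3 gave a Pearson r of 0.952 (exact permutation p = 0.000132, adjusted 0.0037) and a Spearman rho of 0.967 (exact permutation p = 0.000165, adjusted 0.00463). Without the 2 libraries farthest from the median of Ankrd2, the replicates 1 of both groups, r was 0.865. For Xirp1 and Flnc, r was 0.912 (exact permutation p = 0.000703, adjusted 0.00984) and rho 0.933 (exact permutation p = 0.00075, adjusted 0.0105). Without MDA-MB-231 EV replicate 1 and MCF-10A EV replicate 3, the farthest for Xirp1, r was 0.824. These were 2 of 28 relations computed among the 7 genes and a slow-fibre score, all two-sided and chosen after the values were seen, and the other 26 did not pass after Benjamini-Hochberg adjustment. As deviations from the group means the r values were 0.938 for Ankrd2 with Csrp3 and 0.919 for Xirp1 with Flnc. The FPKM ratio of Ankrd2 to Csrp3 ranged from 0.490 to 0.967 in MDA-MB-231 EV and from 0.505 to 0.883 in MCF-10A EV, while Ankrd2 itself spanned 17.3-fold. The FPKM ratio of Xirp1 to Flnc ranged from 0.224 to 0.463 in MDA-MB-231 EV and from 0.275 to 0.470 in MCF-10A EV, while Xirp1 itself spanned 4.28-fold.

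**Figure D3:**
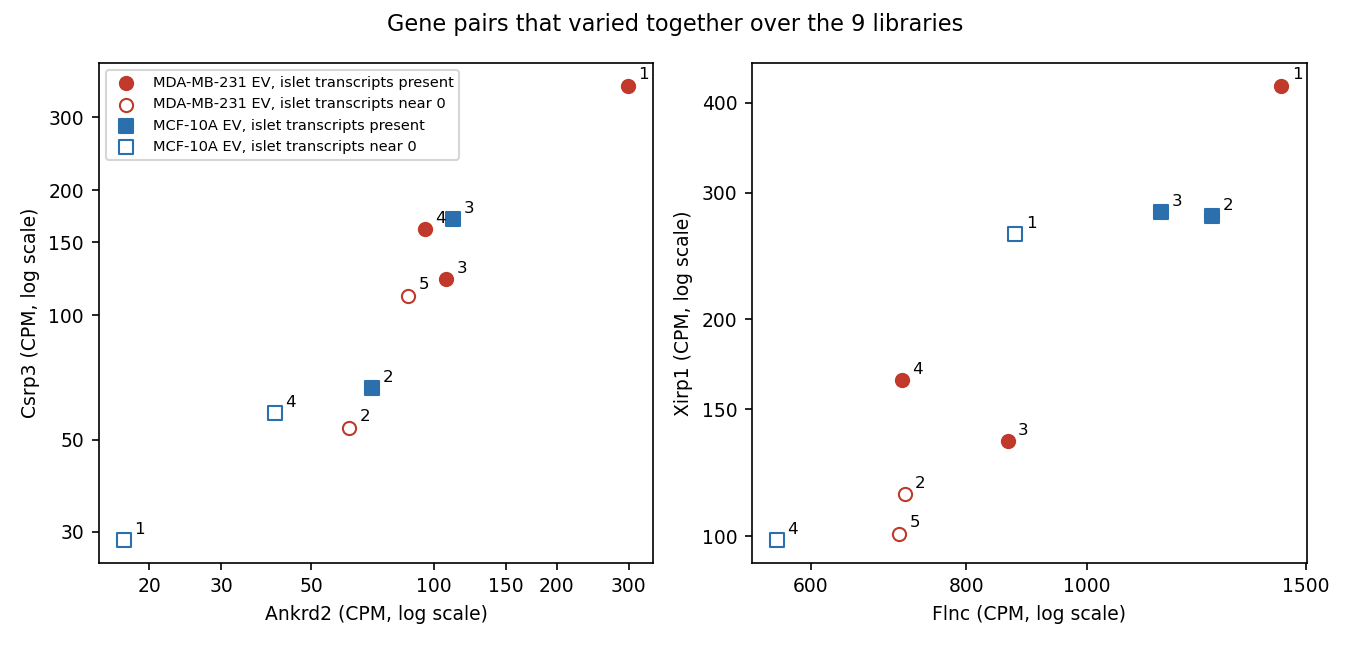
CPM of Csrp3 against Ankrd2 (left) and of Xirp1 against Flnc (right) in the 9 libraries, on log axes, with MDA-MB-231 EV as circles, MCF-10A EV as squares and replicate numbers beside them. Filled symbols are libraries with pancreatic islet transcripts (Ins2 above 10 CPM). In both panels the libraries follow a rising line (r = 0.952 and 0.912), with MDA-MB-231 EV replicate 1 at its upper end.

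Slow-fibre transcripts differed between libraries, and Ankrd2 and Csrp3 are slow-fibre genes. The 8 slow markers (Myh7, Myl2, Myl3, Tnnt1, Tnni1, Tnnc1, Atp2a2 and Tpm3) summed to 802 to 3947 CPM in MDA-MB-231 EV and 218 to 4173 CPM in MCF-10A EV, 8 of 8 had a fold change above 0, and 0 passed. Their median of 0.39 was -0.099 without replicate 1 of both groups. The lowest sum was in MCF-10A EV replicate 1, the library lowest for Ankrd2 and Csrp3. The next lowest was in MDA-MB-231 EV replicate 4, where Ankrd2 was at 94.7 and Csrp3 at 161 CPM, inside the range of the other libraries. The slow-fibre score, the mean log2 CPM of the 8 markers, gave r = 0.687 with Ankrd2 (exact permutation p = 0.0604, adjusted 0.422). As deviations from the group means over all 9, r was 0.655. Without the 2 libraries farthest from the Ankrd2 median, r was -0.125, over a narrower range of Ankrd2. The scores of those 2 were 8.73 (MDA-MB-231 EV replicate 1) and 4.42 (MCF-10A EV replicate 1). The part of slow-fibre content in the Ankrd2 values was not tested. Spearman's rho was 0.383 (exact permutation p = 0.312, adjusted 0.673). For Csrp3 the score gave r = 0.488 (exact permutation p = 0.195, adjusted 0.574) and rho = 0.217 (exact permutation p = 0.581, adjusted 0.904). Without the 2 libraries farthest from the Csrp3 median, r was -0.482, and as deviations from the group means it was 0.41. With the score as a covariate, the log2 fold change was 0.91 for Ankrd2 and 0.88 for Csrp3. In bulk muscle, fewer slow fibres and less RNA per fibre cannot be told apart.

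The libraries also differed in transcripts of another tissue. The pancreatic islet transcript Ins2, which muscle does not make, was above 10 CPM in 5 libraries. These were MDA-MB-231 EV replicates 1, 3 and 4 (Ins2 at 93.6, 65.8 and 44.4 CPM) and MCF-10A EV replicates 2 and 3 (49.7 and 75.5 CPM). They are called the libraries with islet transcripts, a split made after seeing the data. In the other 4 Ins2 was at 0.236 to 0.367 CPM. The 6 islet markers (Ins1, Ins2, Gcg, Iapp, Sst and Chga) summed to 2.47 to 150.6 CPM in MDA-MB-231 EV and 2.36 to 112.8 CPM in MCF-10A EV, and 6 of 6 had a fold change above 0. In the libraries without islet transcripts up to 3 of the 6 were at 0, while Sst and Chga had at least 16 and 18 counts in every library. Within both groups, Ankrd2, Csrp3 and Xirp1 were higher in each library with islet transcripts than in each library without them. Of all genes tested, 1.63% showed this pattern and 1.84% the reverse. Ankrd2 and Csrp3 varied together, so they are not separate cases of it. Ankrd1, Ankrd23, Xirp2 and Flnc showed neither pattern. Ankrd2 was at 94.7 to 299 CPM in the 3 MDA-MB-231 EV libraries with islet transcripts and at 62.0 and 86.3 CPM in the other 2. In MCF-10A EV it was at 70.4 and 111 CPM with islet transcripts and at 17.3 and 40.6 CPM without. Csrp3 was at 122 to 358 against 53.5 and 111 CPM in MDA-MB-231 EV, and at 66.6 and 171 against 28.7 and 58.0 CPM in MCF-10A EV. For Xirp1 the MCF-10A EV values were closer, 279 and 282 CPM with islet transcripts against 98.7 and 263 CPM without. The part of islet-containing tissue in these values was not tested. In the 5 libraries with islet transcripts the log2 fold change between EV groups was 0.88 for Ankrd2 and 0.85 for Csrp3 (edgeR adjusted p = 0.744 and 0.745). In the 4 without it was 1.35 and 0.92 (edgeR adjusted p = 0.616 and 0.754). With islet presence as a covariate it was 1.09 for Ankrd2 (edgeR adjusted p = 0.358, unadjusted 0.0318) and 0.88 for Csrp3 (adjusted 0.438). None of these fits passed, and with so few libraries they do not show whether the fold changes depend on islet transcripts. The libraries with and those without islet transcripts each numbered fewer than 6, so no correlation was computed within them.

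**Figure D4:**
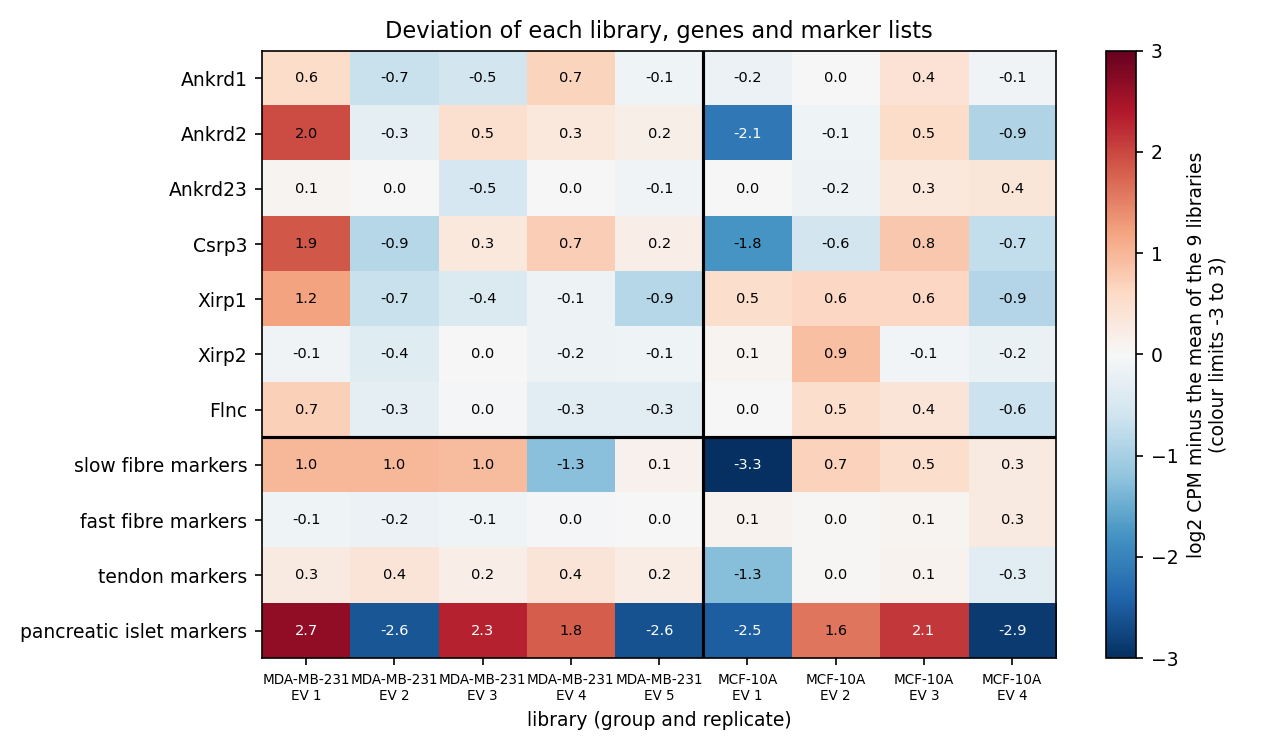
Deviation of each library (columns, MDA-MB-231 EV left of MCF-10A EV) from the mean of the 9 libraries in log2 CPM, for the 7 genes and for the mean log2 CPM of 4 marker lists (rows); red is higher and blue is lower. Ankrd2 and Csrp3 share their highest library, MDA-MB-231 EV replicate 1, and their lowest, MCF-10A EV replicate 1, where the slow-fibre markers are also lowest (mean log2 CPM 4.42).

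Other markers gave the following values. The tendon markers Tnmd, Scx, Fmod, Comp, Thbs4, Mkx and Kera summed to 1363 to 1706 CPM in MDA-MB-231 EV and 505 to 1196 CPM in MCF-10A EV, with 6 of 7 above 0. None of the 7 passed in edgeR after adjustment, and 4 were higher at an unadjusted p under 0.05 (5.95% of all genes). DESeq2 called 3 higher (0.765% of its genes): Fmod (adjusted p = 0.0043), Comp (0.0116) and Tnmd (0.026). The libraries of these 3 did not overlap between the groups (2.22% of all genes). The part of tendon in the values above was not tested. Fast-fibre markers, the defining transcripts of this muscle, summed to 123700 to 151700 CPM in MDA-MB-231 EV and 164200 to 223800 CPM in MCF-10A EV, with 11 of 12 below 0. None of the 12 passed in edgeR after adjustment, and 6 were lower at an unadjusted p under 0.05 (6.86% of all genes). DESeq2 called 4 lower (2.30% of its genes): Myh4 (adjusted p = 0.0068), Mybpc2 (0.0317), Actn3 (0.0356) and Atp2a1 (0.0497). The part of fast-fibre RNA in the values above was not tested. Tnnc2, the troponin C of fast fibres, was listed at 0 to 24 counts in these libraries, while its partners Tnni2 and Tnnt3 were listed at 96937 or more, so its row was not read as the level of that transcript. Tnnc2 is nevertheless among the 11 fast-fibre markers below 0, at a log2 fold change of -0.023. Markers of regenerating or denervated fibres, among which Ankrd1 is known to be induced, summed to 94.4 to 123 CPM in MDA-MB-231 EV and 77.9 to 113 CPM in MCF-10A EV, with 6 of 9 above 0 and 0 past the adjusted threshold. Smooth muscle markers summed to 234 to 476 and 216 to 293 CPM, with 5 of 5 above 0.

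The titin spring and Z-disc partners of these proteins were mostly below 0, with 14 of 20 tested genes lower and a median log2 fold change of -0.23, beside 0.020 for all genes. With edgeR 0 of the 20 passed in either direction after adjustment, and 6 were lower and 0 higher at an unadjusted p under 0.05 (6.86% and 5.95% of all genes). Mypn, myopalladin, which binds Ankrd1 at the sarcomere, was at 462 ± 47.1 CPM in MDA-MB-231 EV and 646 ± 92.1 CPM in MCF-10A EV, a log2 fold change of -0.48 ± 0.12 with adjusted p = 0.257 in edgeR and 0.0111 in DESeq2. Each MDA-MB-231 EV library was below each MCF-10A EV library, as for 3.17% of all genes. Actn3, the fast-fibre actinin and also a fast-fibre marker above, had a log2 fold change of -0.64 ± 0.19 (edgeR adjusted p = 0.260; DESeq2 0.0356). Myoz1, a calsarcin of fast fibres, had one of -0.42 ± 0.14 and Palld, palladin, one of -0.34 ± 0.12, and neither passed in edgeR or DESeq2. With unscaled library sizes the median of the list was -0.091, beside 0.15 for all genes.

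Chaperones and partners of filamin C moved in both directions, with 5 of 10 above 0, 0 past the adjusted threshold and a median of 0.0083. Fblim1, which links filamin to cell adhesions, was low, at 4.86 CPM in MDA-MB-231 EV and 2.58 CPM in MCF-10A EV, and its log2 fold change was 0.91 ± 0.26 with an edgeR adjusted p of 0.260. Pgm5, aciculin, a partner of filamin C and Xin, had one of 0.41 ± 0.17. Synpo2 and Synpo2l, actin-bundling proteins of the Z-disc, had log2 fold changes of -0.42 ± 0.15 and -0.27 ± 0.12. At an unadjusted p under 0.05, 2 of the 10 were higher and 2 lower (5.95% and 6.86% of all genes).

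Regulators and targets of the YAP-TEAD and SRF-MRTF pathways, which carry mechanical signals to the nucleus, had 11 of 17 members above 0, 0 past the adjusted threshold in edgeR and a median of 0.046, which was -0.042 without replicate 1 of both groups. Mkl2 and Mkl1, the myocardin-related co-activators of SRF, had log2 fold changes of -0.51 ± 0.12 and -0.50 ± 0.13 (edgeR adjusted p = 0.247 and 0.257; DESeq2 0.0116 and 0.0249), and their libraries did not overlap between the groups (3.17% of all genes in that direction). Srf had one of -0.37 ± 0.16 (edgeR adjusted p = 0.362). Cyr61, a secreted matrix protein and known YAP target, as Ankrd1 is, had one of 0.90 ± 0.41 (edgeR adjusted p = 0.397). Ctgf, not among the 4 smallest p of the list and named after its value was seen, had one of 1.09 ± 0.52 (edgeR adjusted p = 0.420). Yap1 and Tead1, likewise named afterwards, were within 0.03 of 0 on the log2 scale.

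Integrin and focal adhesion genes had 3 of 10 tested members above 0 (Ilk, at 0 to 6 counts, was not tested), 0 past the adjusted threshold and a median of -0.067, beside 0.020 for all genes. With unscaled library sizes these were 0.069 and 0.15, so the list stayed below the median of all genes. Tln2, the talin of muscle attachments, had a log2 fold change of -0.32 ± 0.11 (edgeR adjusted p = 0.292), Pxn one of -0.15 ± 0.089, Ptk2 one of -0.16 ± 0.10 and Tln1 one of 0.11 ± 0.080. The paralogs Csrp1, Csrp2 and Flna, which are expressed largely outside muscle fibres, had 3 of 3 above 0 and 0 past the adjusted threshold. Csrp1 had a log2 fold change of 0.46 ± 0.20 (edgeR adjusted p = 0.362), Flna one of 0.25 ± 0.18 and Csrp2 one of 0.20 ± 0.23.

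**Figure D5:**
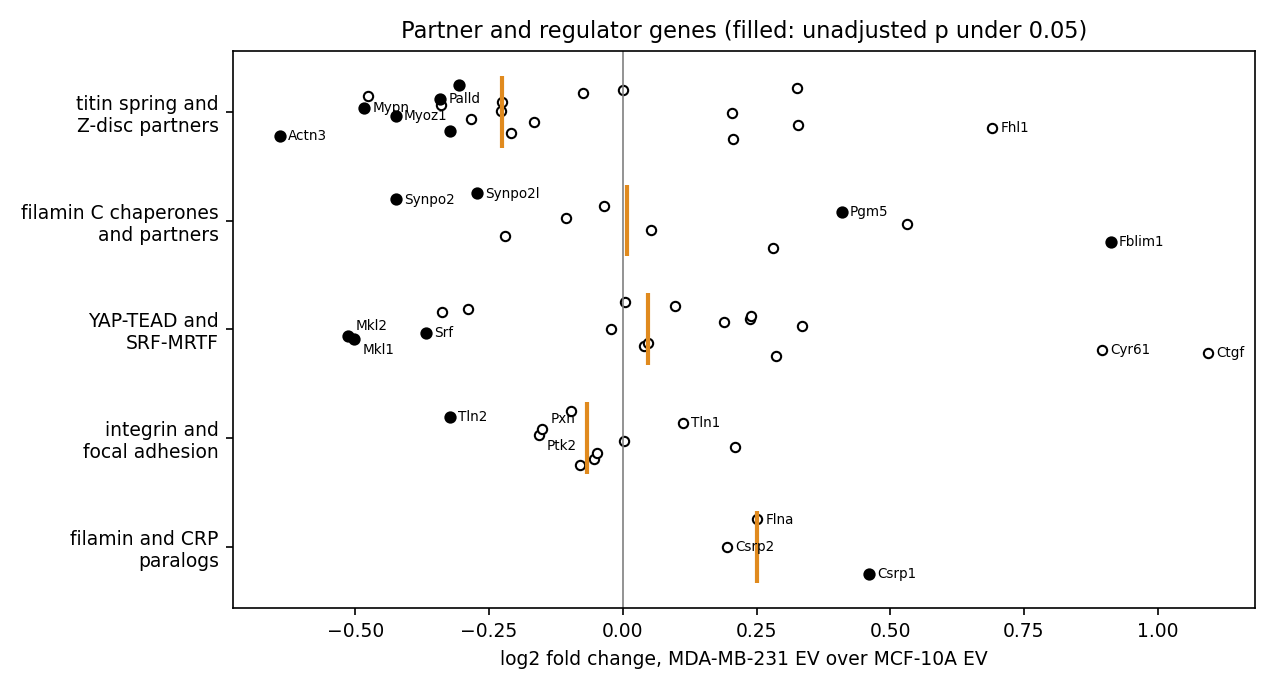
Log2 fold change (horizontal axis, positive where MDA-MB-231 EV is higher) for each tested gene of the 5 partner and regulator lists (points; filled where the unadjusted edgeR p is under 0.05), with the median of each list as an orange line. The titin and Z-disc genes lie mostly left of 0 (median -0.23), and the medians of the filamin C, YAP-TEAD and SRF-MRTF and integrin lists are within 0.07 of 0.

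Genes whose pattern over the 9 libraries was most like a member were found by the root mean square difference of mean-centred log2 CPM. For Ankrd1, whose own SD over the libraries was 0.44, these were Tceal7 (0.17), Rgcc (0.20) and the death receptor Fas (0.26). For Ankrd2, with an SD of 1.055, they were Lrrc52 (0.38), the mitochondrial carrier Slc25a13 (0.39) and the phosphatase Dusp18 (0.42), and Csrp3 itself was closer than these, at 0.32. For Csrp3, with an SD of 1.03, they were Hspb7, a small heat-shock protein of muscle that binds filamin C (0.48), Dusp18 (0.54) and Gbp6 (0.54). Hspb7 had 1117, 463, 500.0, 571 and 430.1 CPM in MDA-MB-231 EV, against 209.9, 448.5, 747 and 299 CPM in MCF-10A EV. It was highest and lowest in the same libraries as Csrp3, which follows in part from its selection by likeness over these libraries.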

How the data were processed

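Gastrocnemius poly-A RNA was sequenced in 9 libraries. Raw counts per gene were deposited by the authors on mm10, and STAR 2.5, TopHat, edgeR, DESeq2 and HTSeq 0.6.1 are listed with no roles, per the submitters' processing notes. The deposited FPKM values equal count over gene length and library total within 0.1% for 100% of 161066 values, so they carry no scaling between libraries. Use of strand in counting and the annotation release are not given in the sources used here.

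Counts were filtered with filterByExpr (minimum count 10, minimum total 15), scaled with TMM and tested with edgeR 4.0.16 (R 4.3.3; robust two-sided quasi-likelihood F-test with EV group as the only term), with Benjamini-Hochberg adjustment over 13901 genes. The SE is the fold change over the root of the F statistic. Log2 CPM used a prior count of 2. The biological coefficient of variation was 20.2%. Total counts were 13943465 to 25195826 per library, and intervals of fold changes cover the spread between libraries. The fit was also run on simulated counts with 200 genes changed, drawn from its own fitted dispersions. Those draws were independent between genes and libraries, so that run does not cover genes that vary together or a library that deviates in many genes.

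The members and lists were chosen with earlier results of these data known, and 1 listed gene is not reported here. Each list names up to 4 genes of smallest p, and 3 genes most like each of Ankrd1, Ankrd2 and Csrp3 with a mean of at least 1 CPM. Alternatives were RLE factors, unscaled library sizes, no count filter, DESeq2 1.42.0, limma 3.58.1 voom, a replicate block, a slow-fibre covariate, omission of each library and of MCF-10A EV replicates 1 and 2 together, and log2 of FPKM plus 1 or plus 0.1 in limma. Added after seeing the data were leaving out replicate 1 of both groups and 3 fits on islet transcripts (Ins2 above 10 CPM). Figures used matplotlib 3.10.9. No per-sample column was left out.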

Additional observations from a re-analysis of the deposited data

Results flagged for a closer look

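Of 18 groups of values checked for a single library far from the rest, 5 stood out. The check was made on CPM for the genes and on mean log2 CPM for the marker lists. Its rate of about 1 in 20 holds for independent, normally distributed values. The genes were checked on the unlogged CPM scale and some varied together, so the 5 cannot be set against that rate. Ankrd2 was at 299 CPM in MDA-MB-231 EV replicate 1, with a gap to the next library of 0.809 of the group's range. Xirp1 was at 423 CPM (0.801) and Flnc at 1434 CPM (0.784) in the same library. Xirp1 was at 98.7 CPM in MCF-10A EV replicate 4, below the other 3 libraries of that group (0.893). The slow-fibre markers had a mean log2 CPM of 4.42 in MCF-10A EV replicate 1 (0.891). No cause of these values was tested.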

How the results depend on the processing

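None of 161 alternative values of the 7 genes (23 settings each) passed an adjusted p under 0.05, the smallest being 0.252, and 16 changed sign. The sign of Ankrd1 turned with limma voom (-0.062), the replicate block (-0.012), islet presence as a covariate (-0.051), without MCF-10A EV replicates 1 and 2 together (-0.11), without replicate 1 of both groups (-0.20) and in the libraries without islet transcripts (-0.23), and ranged from -0.16 to 0.19 without each library in turn. Flnc turned with unscaled library sizes (0.015, where the median over genes was 0.15), on log2(FPKM + 1) and log2(FPKM + 0.1) (0.022 in both) and without the same 2 libraries (0.047), and ranged from -0.36 to 0.037 without each library. Xirp2 was at 0.00077 without those 2. Over all genes, DESeq2 called 228 (57 higher and 171 lower), leaving out each library gave 0 to 2, and each other setting gave 0. The all-gene median was 0.15 with unscaled library sizes and 0.020 with TMM. Of 253 list medians, 14 moved by more than the SD between libraries: 6 fast-fibre, 3 titin, 3 integrin and 2 YAP-TEAD and SRF-MRTF values. Those of the titin, integrin and YAP-TEAD lists moved only with unscaled library sizes or on log2 FPKM, settings without TMM factors. The all-gene median moved there as well, to 0.15 with unscaled sizes, 0.099 on log2(FPKM + 1) and 0.158 on log2(FPKM + 0.1). The causes of the other moves were not tested. Replicates with the same number did not deviate together (r of -0.30, -0.18, 0.038 and 0.080), and 0 of 8 libraries correlated best with their own number. With that number as a block, in which MDA-MB-231 EV replicate 5 has no counterpart, 0 genes passed and Ankrd2 was at 1.12. At this number of libraries the 95% interval of Ankrd2 spans -0.30 to 2.53.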
